A study of Mus musculus with 8 samples.

Results

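The mouse genome carries 39 Hox cluster genes, which lie in 4 clusters: 11 in Hoxa on chromosome 6, 10 in Hoxb on chromosome 11, 9 in Hoxc on chromosome 15 and 9 in Hoxd on chromosome 2. They are described here as the rows whose identifier maps to Hoxa, Hoxb, Hoxc or Hoxd followed only by a number, without antisense or opposite-strand rows, and they make up 39 of the 45706 gene rows in the table. The cells were primary embryonic fibroblasts (MEFs) of C57BL/6 mice lacking both the cRel and RelA subunits of NF-κB (crel-/-rela-/-, called KO below) or WT MEFs. Both were starved of serum overnight and given 10 ng/ml of TNF, which is known to activate NF-κB. RNA bound to chromatin was collected at 0, 15, 45 and 60 min, with 1 library for each genotype and time and 8 libraries in all. The sources used here give neither the embryonic age nor the part of the embryo cultured nor the number of embryos, so the genotype and the individual cultures cannot be told apart. Nothing says that the libraries of a genotype came from separate cultures. The p-values of the genotype comparison thus measure the spread between libraries taken at 4 times, which may be technical. Those of the late response, described below, rest on the spread between 45 and 60 min alone.

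Hox genes encode homeodomain transcription factors that mark position along the body axis and the limb axis. Within a cluster, genes with low numbers lie at the 3′ end and are active towards the head, and genes with high numbers lie at the 5′ end and are active towards the tail and the tip of the limb. Genes of different clusters with the same number are paralogs. Fibroblasts keep much of the Hox pattern of the site they came from when they are cultured. Polycomb complexes keep Hox genes silent, Trithorax and MLL proteins keep them active, and TALE homeodomain proteins bind DNA together with HOX proteins.

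Library totals ran from 12359817 to 15607331 counts, of which 58.92 to 70.62% fell on 3 rows (Gm26917, Gm42418 and Malat1). The 39 Hox genes held 2502 to 4753 counts per library. The fit across all genes used the 15049 genes that reached 10 counts in 2 or more libraries, and 34 of the 39 Hox genes were among them. The Rela row held 241 to 324 counts in KO and 324 to 704 in WT, and the Rel row 308 to 633 in KO and 151 to 805 in WT. These counts cover whole genes rather than the deleted exons, so they do not check the genotype labels. Fibroblast markers were high in both genotypes, with a summed level of 10300 to 13800 CPM in KO and 9840 to 12500 CPM in WT.

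Of the 34 Hox genes tested, 17 differed between KO and WT MEFs by the edgeR quasi-likelihood test with time as a block, at a Benjamini-Hochberg adjusted p under 0.05. They were 5 higher in KO, against a background of 6.81% of all genes tested that were higher, and 12 lower, against a background of 9.44%. The genes that were higher carried numbers from 10 to 13 (Hoxa13 and Hoxd10 to Hoxd13), and those that were lower carried numbers from 3 to 9. By cluster, 1 Hoxa gene was higher and 0 were lower, 0 Hoxb genes were higher and 4 lower, 0 Hoxc genes were higher and 5 lower, and 4 Hoxd genes were higher and 3 lower. The median log2 fold change, KO over WT, was -0.24 over the 34 Hox genes and 0.01 over all genes tested. Summed over all members, the Hox level was 229 ± 11.7 CPM in KO and 306 ± 25.6 CPM in WT (SD over 4 times, where CPM is the count scaled by TMM to a common library size). In CPM, 4 of the tested Hox genes lay above WT in all 4 KO libraries, against a background of 5.84%. A further 13 lay below WT in all 4 KO libraries, against a background of 7.75%, and 17 overlapped.

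**Figure D1:**
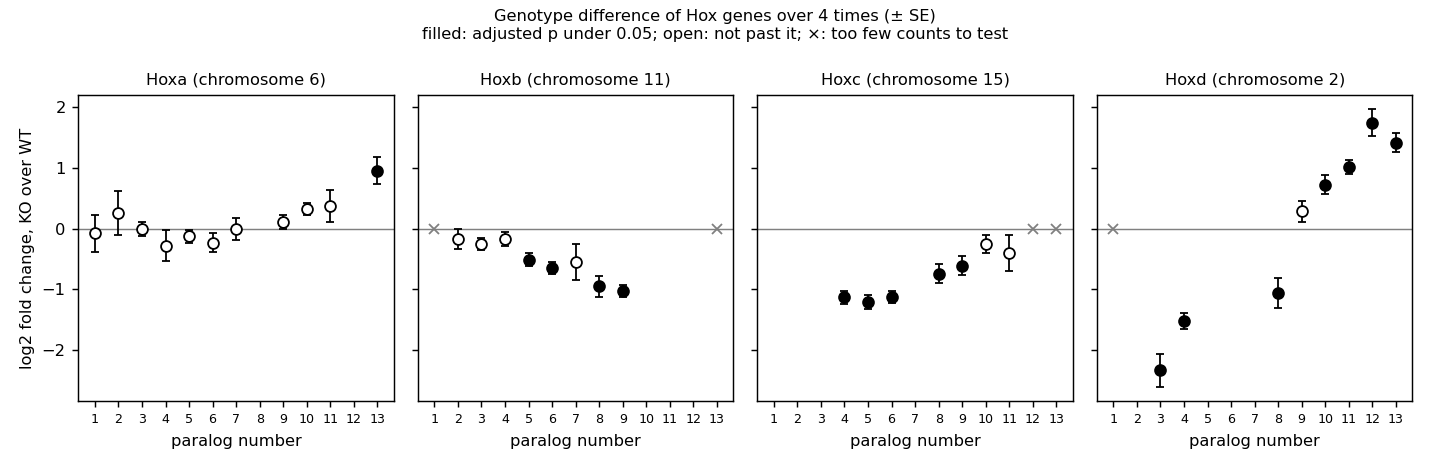
Log2 fold change (KO over WT, from the fit over 4 times) of each Hox gene against its paralog number, with 1 panel per cluster, bars for the standard error and filled points for an adjusted p under 0.05. In Hoxd the values run from -2.33 at Hoxd3 to 1.74 at Hoxd12 and 1.41 at Hoxd13, while in Hoxc every called gene lies below 0.

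The Hoxd cluster (mm10 chr2:74668310-74765142, forward strand) held differences in both directions. Hoxd13, which patterns the digits and the hindmost trunk, had 14.9, 15.1, 17.2 and 17 CPM in KO at 0, 15, 45 and 60 min, against 5.87, 3.53, 6.66 and 8.68 CPM in WT. Every KO library lay above every WT library. Its log2 fold change was 1.41 ± 0.16 (SE; adjusted p = 0.000281, edgeR, 8 libraries). Hoxd12, its neighbour with overlapping limb functions, had 3.65, 3.09, 3.74 and 3.91 CPM in KO, against 1.13, 1.15, 0.717 and 1.30 CPM in WT. The groups did not overlap, and the log2 fold change was 1.74 ± 0.22 (adjusted p = 0.000584, edgeR). Hoxd11, which shapes the forearm together with its Hoxa paralog, had 12.3, 12.0, 14.4 and 16.1 CPM in KO, against 7, 6.19, 5.45 and 8.68 CPM in WT. All KO libraries were again the higher ones, with a log2 fold change of 1.01 ± 0.12 (adjusted p = 0.000452, edgeR). Hoxd10 had 5.86, 4.68, 5.09 and 4.58 CPM in KO, against 4.13, 2.66, 2.51 and 3.04 CPM in WT. These groups did not overlap either, and the log2 fold change was 0.72 ± 0.16 (adjusted p = 0.0135, edgeR). Without the 15 min or the 45 min library of either genotype, the Hoxd10 value was 0.62 to 0.69 and the adjusted p 0.0503 to 0.0796, and with DESeq2 the adjusted p was 0.0783.

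Hoxd9 was the member at which the direction turned. It had 3.35, 3.27, 2.46 and 3.30 CPM in KO, against 2.73, 2.52, 2.44 and 2.46 CPM in WT. The ranges overlapped, and the log2 fold change of 0.28 ± 0.18 did not pass (adjusted p = 0.32, edgeR). Hoxd8 had 2.51, 1.32, 1.75 and 1.5 CPM in KO, against 3.27, 4.03, 3.30 and 4.41 CPM in WT. All KO libraries were lower, with the smallest gap at 0 min, and the log2 fold change was -1.06 ± 0.24 (adjusted p = 0.0139, edgeR). Without the 15 min or the 60 min library of either genotype, the Hoxd8 value was -0.91 to -0.89 and the adjusted p 0.0561 to 0.0602.

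Hoxd4, a gene of the hindbrain and neck vertebrae, had 3.95, 3.27, 2.62 and 2.70 CPM in KO, against 10.5, 10.0, 7.52 and 8.17 CPM in WT. Hoxd3, which acts with its Hoxa paralog in the first neck vertebrae, had 0.658, 0.530, 0.397 and 0.751 CPM in KO, against 3.6, 3.74, 2.44 and 2.24 CPM in WT. In both genes the KO libraries were far below the WT ones at every time. The log2 fold change was -1.52 ± 0.13 for Hoxd4 (adjusted p = 5.76e-05, edgeR) and -2.33 ± 0.27 for Hoxd3 (adjusted p = 0.000328, edgeR). The Hoxd3 value rests on 5 to 11 counts per KO library and 31 to 54 per WT library. Both genes share exons on the same strand with each other and with the gene model Gm28230, over 62.3% of the exon length of Hoxd3 and 52.3% of that of Hoxd4, so the split of reads between them is uncertain. Hoxd1, at the 3′ end, had at most 1 count in any library and was not tested.

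The share of all Hoxd counts that came from Hoxd9 to Hoxd13 was also read within each library. It was 84.9% (95% exact binomial interval 82.2 to 87.3), 88.2% (85.0 to 90.9), 90.0% (87.3 to 92.3) and 90.1% (87.5 to 92.2) in KO at 0, 15, 45 and 60 min. It was 54.6% (50.4 to 58.8), 47.3% (42.8 to 52.0), 57.3% (52.5 to 62.0) and 62.0% (57.7 to 66.1) in WT. No interval of a KO library reached one of a WT library, although the intervals cover counting error only. In Hoxb the share from numbers 9 to 13 stood the other way, at 19.6 to 22.5% in KO and 24.9 to 32.4% in WT. There it came almost wholly from Hoxb9, since Hoxb13 held at most 2 counts in any library. In Hoxc it was 14.5 to 18.8% in KO and 10.3 to 12.1% in WT, and in Hoxa, where the ranges overlapped, 43.4 to 50.5% in KO and 36.8 to 44.3% in WT. The summed level of Hoxd9 to Hoxd13 was 41.5 ± 3.01 CPM in KO and 19.7 ± 3.57 CPM in WT, and that of the Hoxd genes numbered 8 or below was 5.49 ± 1.09 CPM in KO and 15.8 ± 2.16 CPM in WT (SD over 4 times). The 2 ends of the Hoxd cluster thus stood on opposite sides of WT in these libraries.

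**Figure D2:**
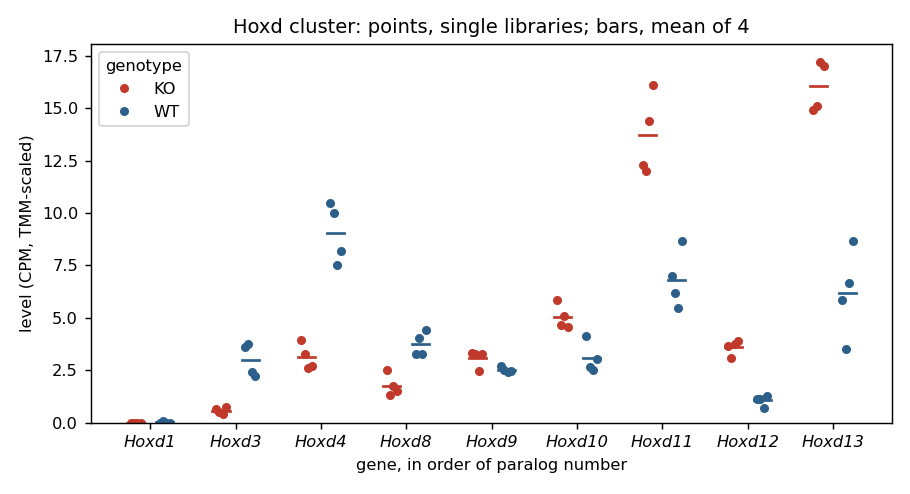
Level of each Hoxd gene in CPM (TMM-scaled), with KO libraries in red on the left and WT libraries in blue on the right of each gene, points for the 4 times and a bar for their mean. Red points lie above blue from Hoxd10 to Hoxd13 and below blue at Hoxd3, Hoxd4 and Hoxd8.

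The promoters of the 2 Hoxd genes with the highest log2 fold change and of the 2 with the lowest are printed to show the sequence at each end of the cluster. Each runs from 250 bases before the start to 50 after it on the forward strand of GRCm38.p6 (RefSeq), in lower case, with matches to CCAAT and TATAA on either strand in capitals. Hoxd13 is at chr2:74667975-74668274, Hoxd12 at chr2:74674763-74675062, Hoxd4 at chr2:74721728-74722027 and Hoxd3 at chr2:74711743-74712042.
Hoxd13: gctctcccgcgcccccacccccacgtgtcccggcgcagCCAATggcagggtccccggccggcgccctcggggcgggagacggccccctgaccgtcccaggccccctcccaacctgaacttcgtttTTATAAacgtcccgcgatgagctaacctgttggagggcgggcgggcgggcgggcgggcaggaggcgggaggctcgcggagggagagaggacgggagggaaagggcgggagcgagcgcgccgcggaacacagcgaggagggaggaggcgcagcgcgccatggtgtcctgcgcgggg
Hoxd12: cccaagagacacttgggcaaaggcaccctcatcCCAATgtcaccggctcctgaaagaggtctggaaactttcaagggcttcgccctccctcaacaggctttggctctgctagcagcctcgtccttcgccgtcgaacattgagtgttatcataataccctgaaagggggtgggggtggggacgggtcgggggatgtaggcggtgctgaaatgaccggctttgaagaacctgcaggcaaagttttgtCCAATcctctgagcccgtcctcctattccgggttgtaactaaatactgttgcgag
Hoxd4: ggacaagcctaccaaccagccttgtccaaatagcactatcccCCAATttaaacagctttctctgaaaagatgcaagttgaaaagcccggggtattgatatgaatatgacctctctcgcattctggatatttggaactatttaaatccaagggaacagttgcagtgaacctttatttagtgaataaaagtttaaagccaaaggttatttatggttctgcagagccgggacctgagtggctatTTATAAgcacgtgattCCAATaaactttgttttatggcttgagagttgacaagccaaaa
Hoxd3: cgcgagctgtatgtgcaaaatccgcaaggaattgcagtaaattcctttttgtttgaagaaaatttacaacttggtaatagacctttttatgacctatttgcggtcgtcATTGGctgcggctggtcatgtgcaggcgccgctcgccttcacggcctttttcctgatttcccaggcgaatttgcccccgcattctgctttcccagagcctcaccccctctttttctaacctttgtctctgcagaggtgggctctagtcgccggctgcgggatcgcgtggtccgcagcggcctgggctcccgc
The Hoxd13 promoter had a GC content of 74.3% with 37 CpG, Hoxd12 55.0% with 13, Hoxd4 39.7% with 4 and Hoxd3 54.0% with 20. RefSeq promoters were matched for 22 of the 39 Hox genes, 24 windows in all. Of the called Hoxb and Hoxc genes, only Hoxb8 and Hoxc4 had a window. CCAAT was in 15 of the 24 (62.5%), against 37.4% of 32851 mouse promoters of the same length. TATAA was in 6 (25%), against 24.9%, and TGATTNAT, a motif bound by HOX proteins with TALE cofactors, in 2 (8.3%), against 3.2%. The κB consensus, the motif NF-κB binds, was in 0 of the 24 Hox windows and in 4.5% of all windows. With so few windows, 0 is close to that share and is not read as particular to Hox genes. All these motif counts are matches of letters on either strand and not measured sites.

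The Hoxc cluster (mm10 chr15:102921103-103036852, forward strand) was lower in KO as a whole, with a summed level of 60.0 ± 5.09 CPM in KO and 122 ± 14 CPM in WT (SD over 4 times). Hoxc6, active in the thorax and the most abundant Hox gene per exon length, had 24.8, 24.0, 21.7 and 22.8 CPM in KO, against 46.8, 45.0, 53.5 and 59.0 CPM in WT. Its mean was 9.69 CPM per kb in KO and 21.2 CPM per kb in WT. The KO libraries were close to each other and all under the lowest WT library, with a log2 fold change of -1.12 ± 0.10 (adjusted p = 8.24e-05, edgeR). Hoxc5 had 15.0, 15.8, 13.1 and 13.5 CPM in KO, against 29.5, 30.3, 33.9 and 40.1 CPM in WT. Hoxc4 had 7.06, 5.48, 5.33 and 5.93 CPM in KO, against 14.2, 12.5, 11.3 and 14.2 CPM in WT. Neither gene's groups overlapped. The log2 fold change was -1.21 ± 0.12 for Hoxc5 (adjusted p = 0.000119, edgeR) and -1.13 ± 0.11 for Hoxc4 (adjusted p = 0.000114, edgeR).

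Further towards the 5′ end of Hoxc the differences were smaller, a contrast that was not itself tested. Hoxc8, a gene of the lower thorax, had 7.72, 7.07, 5.96 and 4.96 CPM in KO, against 10.6, 11.2, 8.60 and 12.7 CPM in WT. All KO libraries were lower, and the log2 fold change was -0.74 ± 0.15 (adjusted p = 0.00964, edgeR). Hoxc9, which is active in the thoracic spinal cord and ribs, had 5.62, 5.83, 3.34 and 5.48 CPM in KO, against 8, 6.62, 7.24 and 8.97 CPM in WT. The groups did not overlap but came close at 15 min, and the log2 fold change was -0.61 ± 0.16 (adjusted p = 0.0249, edgeR). Without the 45 min or the 60 min library of either genotype, the Hoxc9 value was -0.58 to -0.47 and the adjusted p 0.0764 to 0.121, and with DESeq2 the adjusted p was 0.0802. Hoxc10 and Hoxc11, the next members, had log2 fold changes of -0.25 ± 0.15 (adjusted p = 0.317, edgeR) and -0.40 ± 0.30 (adjusted p = 0.415, edgeR). Hoxc12 and Hoxc13 held at most 4 and 12 counts in any library and were not tested.

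In the Hoxb cluster (mm10 chr11:96194316-96368256, forward strand) the 4 called genes were lower in KO, by more at Hoxb8 and Hoxb9 than at Hoxb5 and Hoxb6, a contrast that was not itself tested. Hoxb9, which patterns the thorax and was the most abundant Hoxb gene per exon length, had 13.2, 12.1, 13.1 and 13.4 CPM in KO, against 22.4, 29.0, 26.5 and 28.2 CPM in WT. Its mean was 5.03 CPM per kb in KO and 10.3 CPM per kb in WT. The KO values were nearly the same at the 4 times and under every WT value, with a log2 fold change of -1.02 ± 0.10 (adjusted p = 0.000146, edgeR). Hoxb8 had 2.63, 2.12, 3.02 and 2.63 CPM in KO, against 4.93, 5.33, 5.16 and 4.70 CPM in WT. The groups were well apart, with a log2 fold change of -0.95 ± 0.17 (adjusted p = 0.0038, edgeR). Hoxb6 had 8.62, 10.6, 6.68 and 10.2 CPM in KO, against 12.9, 16.0, 11.4 and 16.1 CPM in WT. Hoxb5 had 10.8, 10.4, 7.79 and 8.86 CPM in KO, against 14, 13.5, 12.0 and 14.2 CPM in WT. Both were lower in every KO library, by a narrower margin. The log2 fold change was -0.65 ± 0.10 for Hoxb6 (adjusted p = 0.00185, edgeR) and -0.51 ± 0.11 for Hoxb5 (adjusted p = 0.00988, edgeR). Without the KO or the WT library of 45 min the Hoxb5 value was -0.47 and -0.48, with an adjusted p of 0.058 and 0.0593.

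Hoxb7 lay lower in all 4 KO libraries, at 0.676 to 0.795 CPM against 0.936 to 1.30 CPM in WT, but on 9 to 18 counts its log2 fold change of -0.55 ± 0.29 did not pass (adjusted p = 0.236, edgeR). Hoxb4 had 12.4, 11.4, 12.2 and 11.7 CPM in KO, against 14.2, 14.2, 10.5 and 15.0 CPM in WT. Hoxb3 had 13.9, 11.7, 9.14 and 11.1 CPM in KO, against 16.2, 15.2, 10.4 and 12.9 CPM in WT. In both the ranges overlapped. Hoxb4 had a log2 fold change of -0.17 ± 0.12 (adjusted p = 0.366, edgeR) and Hoxb3 of -0.25 ± 0.10 (adjusted p = 0.116, edgeR). Hoxb3 passed only where the libraries were scaled by total counts (-0.43 ± 0.12, adjusted p = 0.0193, edgeR), and 2250 of its exon bases lie opposite Hoxb3os, an antisense gene. Hoxb2, a hindbrain gene, had -0.17 ± 0.17 (adjusted p = 0.526, edgeR). Hoxb1 and Hoxb13 held at most 1 and 2 counts in any library and were not tested.

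The Hoxa cluster (mm10 chr6:52155590-52260880, reverse strand) had a summed level of 60.0 ± 5.74 CPM in KO and 56.3 ± 6.90 CPM in WT (SD over 4 times). All 11 members were tested and only Hoxa13 passed. Hoxa13, which patterns the digits and the genital tubercle like Hoxd13, had 4.73, 3.44, 6.04 and 4.96 CPM in KO, against 1.73, 1.08, 3.65 and 3.90 CPM in WT. The ranges overlapped, since the KO library at 15 min lay under the WT libraries at 45 and 60 min. The log2 fold change was 0.95 ± 0.22 (adjusted p = 0.0177, edgeR). It did not pass without the library of KO 0 min, KO 15 min, KO 45 min, WT 0 min or WT 15 min, with values of 0.78 to 1.05 and an adjusted p of 0.0522 to 0.0575. Without the time block the adjusted p was 0.183.

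The other Hoxa genes had log2 fold changes from -0.28 for Hoxa4 to 0.37 for Hoxa11. Hoxa6, the most abundant Hoxa gene per exon length, had 5.03, 4.15, 4.13 and 4.88 CPM in KO, against 4.8, 5.33, 5.66 and 5.71 CPM in WT. Its log2 fold change was -0.23 ± 0.15 (adjusted p = 0.32, edgeR). Hoxa9, a regulator of blood progenitors as well as of the trunk, had 13.1, 8.21, 10.7 and 11.3 CPM in KO, against 10.8, 8.14, 9.10 and 12.1 CPM in WT. Neither gene's groups were apart, and the Hoxa9 value was 0.11 ± 0.11 (adjusted p = 0.556, edgeR). Hoxa10, a gene of the lumbar vertebrae, had 0.32 ± 0.10 (adjusted p = 0.0604, edgeR).

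**Figure D3:**
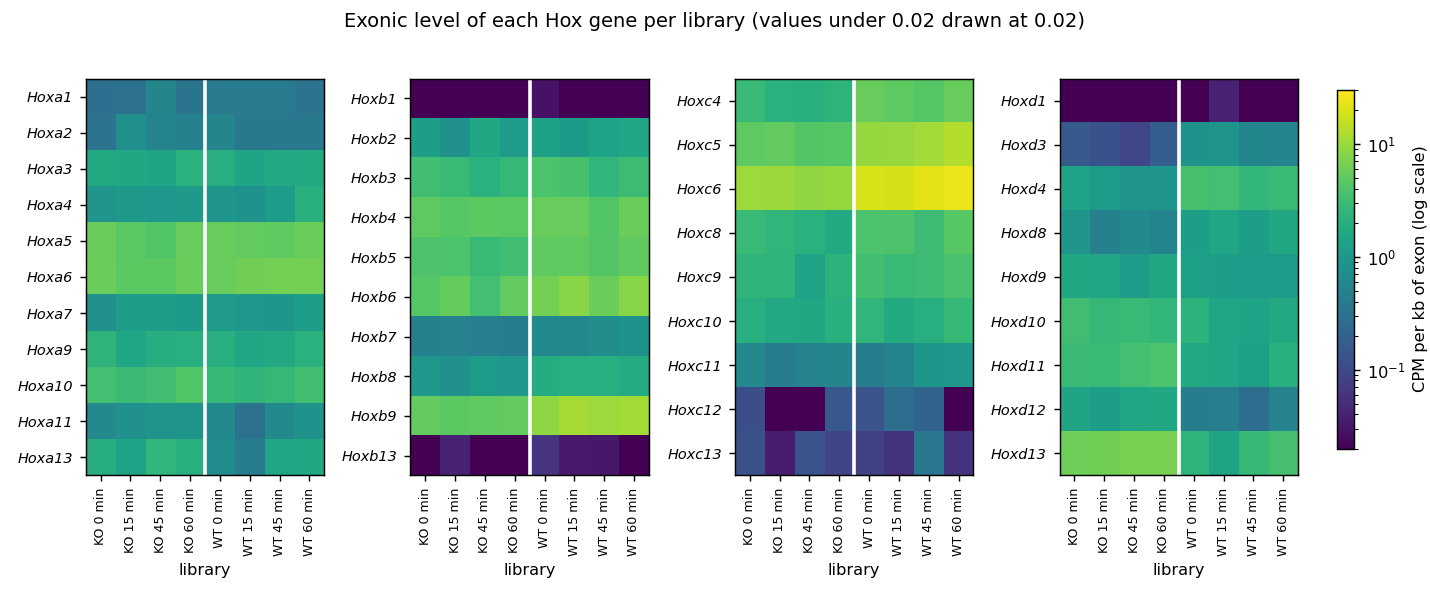
Level of every Hox gene in each library in CPM per kb of exon, as colour on a log scale, with 1 panel per cluster, genes in order of paralog number and KO libraries left of the white line. Hoxc6 is the brightest row, at a mean of 9.69 in KO and 21.2 in WT, and Hoxb1, Hoxb13, Hoxc12, Hoxc13 and Hoxd1 are near the floor in both genotypes.

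Paralogs with the same number did not all differ alike. In group 4, Hoxc4 and Hoxd4 fell in KO, while Hoxa4 had -0.28 ± 0.26 and Hoxb4 -0.17 ± 0.12 on the log2 scale and did not pass. In group 9, Hoxb9 and Hoxc9 fell, while Hoxa9 had 0.11 ± 0.11 and Hoxd9 0.28 ± 0.18. In group 8, all of Hoxb8, Hoxc8 and Hoxd8 fell. In group 13, Hoxa13 and Hoxd13 rose, and Hoxb13 and Hoxc13 had too few counts. In group 10, Hoxd10 rose, while Hoxa10 had 0.32 ± 0.10 and Hoxc10 -0.25 ± 0.15. The differences between paralogs were not tested.

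Set side by side at each time, KO over WT, all 17 genes kept their direction at 0, 15, 45 and 60 min. They had been called on these same libraries, so the like direction was favoured by their choice and is not separate support. With 1 library on each side there was no test, and a difference was counted where it was at least 2-fold, its exact interval did not include a ratio of 1 and 20 counts or more were present in the higher library. At 0 min, 3 Hox genes were counted as higher in KO (background 1.91%) and 3 as lower (background 3.37%). At 15 min, 4 were higher (1.83%) and 6 lower (3.44%). At 45 min, 4 were higher (2.75%) and 7 lower (5.58%). At 60 min, 1 was higher (2.43%) and 9 lower (5.7%). Hoxd12 was higher and Hoxd3, Hoxd4 and Hoxc4 lower by this rule at all 4 times. The log2 ratio of Hoxd13 was 1.34, 2.10, 1.37 and 0.97, and that of Hoxa13 was 1.45, 1.67, 0.73 and 0.34. For Hoxa13 the interval at 60 min, from -0.20 to 0.89, included a log2 ratio of 0. So did those of Hoxd8 at 0 min (-1.01 to 0.25) and Hoxc9 at 15 min (-0.66 to 0.29), and that of Hoxd10 at 60 min began at 0.0.

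**Figure D4:**
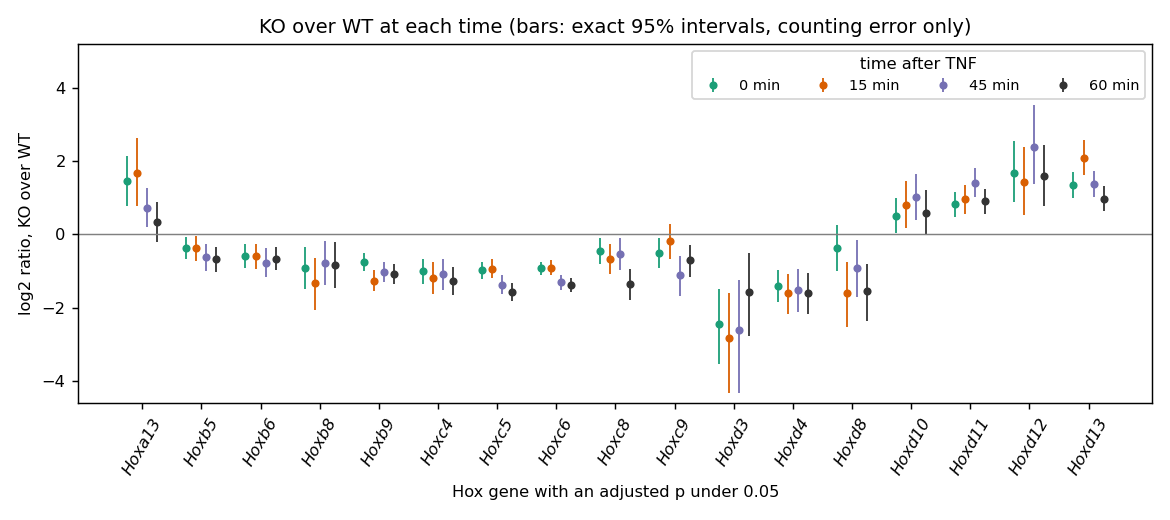
Log2 ratio of KO over WT at each time for the 17 Hox genes past the threshold, with 1 library on each side and bars for exact 95% intervals that cover counting error only. Every point lies on the same side of 0 for a given gene, in the same libraries by which the genes were called. The 4 points are farthest apart for Hoxa13, from 0.34 to 1.67.

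For the hour after TNF, the late times were tested against 0 min in each genotype, and 15 min against 0 min was not tested. The late response, the mean of 45 and 60 min against 0 min, gave 0 Hox genes by edgeR in KO, where the background was 1.32% higher and 0.518% lower. It gave 0 in WT, where the background was 4.17% higher and 1.31% lower. The test of the difference between the genotypes' late responses (KO minus WT) also gave 0, against a background of 0.00664% higher and 0.492% lower. At an unadjusted p under 0.05 by edgeR there were 0 Hox genes in KO, 2 in WT and 0 in the difference. Over all 15049 genes tested there were 2667 in KO, 2832 in WT and 1149 in the difference. At the adjusted threshold DESeq2 and limma-voom gave 0 Hox genes in each of the 3 comparisons. The median log2 late response over the Hox genes was -0.13 in KO and 0.01 in WT. The 2 genes in WT were Hoxa13, at 1.12 ± 0.35 (adjusted p = 0.0938, edgeR), and Hoxc11, at 1.18 ± 0.47 (adjusted p = 0.188, edgeR). Their late responses in KO were 0.22 ± 0.29 for Hoxa13 and -0.22 ± 0.46 for Hoxc11. Hoxc11 had 1.26, 0.883, 1.03 and 1.13 CPM in KO, against 0.867, 1.08, 1.93 and 2.02 CPM in WT. With 0 and 15 min pooled as the baseline, Hoxa13 passed in WT, at 1.41 ± 0.31 (adjusted p = 0.00709, edgeR). At the adjusted threshold the Hox counts were close to these backgrounds for 34 genes, so little about Hox genes is read from them. The late comparisons had 2 residual degrees of freedom and the genotype comparison 3. In the late fit 45 and 60 min stood in for replicates, while 0 and 15 min had 1 library per genotype. Its p-values therefore rest on the spread between 45 and 60 min and include no measured spread at 0 min.

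Rows other than the 39 genes that lie inside the 4 clusters were read in the same fit, and 8 had at least 20 counts in a library. In Hoxb, the gene model Gm53, beyond the 5′ side of Hoxb9, had 436, 334, 370 and 454 counts in KO, against 696, 814, 737 and 891 counts in WT. The KO libraries were all lower, like those of Hoxb9, with a log2 fold change of -0.90 ± 0.08 (adjusted p = 6.18e-05, edgeR). The row of the microRNA gene Mir196a-1, between Gm53 and Hoxb9, had 22, 17, 10 and 18 counts in KO, against 33, 41, 37 and 38 counts in WT (-1.08 ± 0.23, adjusted p = 0.0113, edgeR). In Hoxc, the row of Mir615, inside the Hoxc5 gene model, had 18, 9, 8 and 8 counts in KO, against 27, 19, 25 and 19 counts in WT. All KO values were below all WT values in counts, with -1.02 ± 0.27 (adjusted p = 0.0302, edgeR). In Hoxd, Gm28230, which shares exons with Hoxd3 and Hoxd4, had -2.32 ± 0.33 (adjusted p = 0.000998, edgeR). Without the KO or the WT library of 45 min the adjusted p of Mir196a-1 was 0.0589 and 0.0609, and without any 1 library of 15, 45 or 60 min that of Mir615 was 0.0656 to 0.144. With DESeq2 the adjusted p was 0.0554 for Mir196a-1 and 0.206 for Mir615. Another 4 rows did not pass. These were Hoxa11os, antisense to Hoxa11, at 0.63 ± 0.21 (adjusted p = 0.0644, edgeR, but 0.0123 without KO 60 min and 0.0109 without WT 60 min), 9530018H14Rik next to Hoxa13 at 0.89 ± 0.29 (adjusted p = 0.0664, edgeR), Gm14396 between Hoxd10 and Hoxd9 at 0.81 ± 0.30 (adjusted p = 0.0949, edgeR) and Hoxaas2 at -0.01 ± 0.18 (adjusted p = 0.982, edgeR).

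The mature microRNAs of the called microRNA rows are shown because the miR-196 family is known to target Hoxb8 and other Hox transcripts. They are RefSeq sequences of GRCm38.p6, 5′ to 3′, with the seed (bases 2 to 8) in capitals. miR-196b-5p, from the Hoxa cluster, has the same seed as miR-196a-5p.
miR-196a-5p: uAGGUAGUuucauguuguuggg
miR-196b-5p: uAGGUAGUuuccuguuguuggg
miR-615-5p: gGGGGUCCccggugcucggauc
miR-615-3p: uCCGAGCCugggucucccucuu
The row of Mir196b was at 0 in all 8 libraries, and Mir196a-2, in Hoxc, held at most 3 counts in any library. These counts come from RNA on chromatin over the hairpin gene and do not measure the mature microRNAs.

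Genes for proteins that act with or on Hox genes had called differences of under 1 on the log2 scale. Over all genes tested, 6.81% were higher and 9.44% lower, with a median of 0.01, and nothing particular to these lists is read from their counts. Of 9 TALE cofactor genes, 2 rose and 0 fell (median log2 fold change 0.11). Pknox2 had 0.43 ± 0.11 (adjusted p = 0.0251, edgeR). Pbx4, which was not called, had -0.91 ± 0.31 (adjusted p = 0.0781, edgeR), and it passed without the KO or the WT library of 0 min (adjusted p = 0.0333 and 0.0329). Pknox2 did not pass without any 1 of the 8 libraries (adjusted p 0.0699 to 0.0897). Of 22 Polycomb genes, 4 rose and 2 fell (median -0.02), and the share that fell was close to that over all genes. Phc2, a subunit of the PRC1 complex, had 0.36 ± 0.08 (adjusted p = 0.0106, edgeR), the histone-binding Rbbp7 had 0.30 ± 0.08 (adjusted p = 0.032, edgeR), and Cbx7, a PRC1 reader of histone methylation, had -0.93 ± 0.25 (adjusted p = 0.0325, edgeR). Phc2 did not pass without KO 15 min, KO 45 min or WT 15 min (adjusted p 0.0521 to 0.0545), Rbbp7 without any 1 of the 8 libraries (0.068 to 0.125), and Cbx7 without any 1 library of 45 or 60 min (0.111 to 0.142). Of 14 Trithorax and MLL genes, 0 rose and 3 fell (median -0.09). They were the histone methyltransferase genes Kmt2a, at -0.31 ± 0.07 (adjusted p = 0.0152, edgeR), and Ash1l, at -0.29 ± 0.07 (adjusted p = 0.0177, edgeR), and the histone demethylase gene Kdm6a, at -0.36 ± 0.09 (adjusted p = 0.0225, edgeR). Kmt2a did not pass without any 1 library of 15 or 45 min (adjusted p 0.0673 to 0.0993), Ash1l without any of those or KO 60 min (0.0527 to 0.0866), and Kdm6a without any 1 library of 15, 45 or 60 min (0.0548 to 0.119). Scaled by total counts, Pknox2, Phc2 and Rbbp7 had values of 0.25, 0.18 and 0.12 and did not pass. With DESeq2 neither Pknox2 (adjusted p = 0.19) nor Rbbp7 (adjusted p = 0.147) passed.

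Other transcription factors that mark body position were read in the same fit, in which 6.81% of all genes were higher and 9.44% lower. Of 20 limb patterning genes tested, 7 rose and 5 fell (median 0.30). Tbx4, a gene of the hindlimb, had 163, 95, 70 and 111 counts in KO, against 49, 26, 21 and 36 counts in WT, and Pitx1, which specifies the hindlimb, had 79, 48, 72 and 71 counts in KO, against 25, 13, 23 and 34 counts in WT. Every KO library was above every WT library in both. The log2 fold change was 1.80 ± 0.16 for Tbx4 (adjusted p = 6.18e-05, edgeR) and 1.59 ± 0.20 for Pitx1 (adjusted p = 0.000584, edgeR). En1, a gene of the ventral limb skin and of the dermis of the trunk, had -1.03 ± 0.13 (adjusted p = 0.000601, edgeR). Tbx5, the forelimb counterpart of Tbx4, was chosen after its values were seen. It had 105, 61, 65 and 116 counts in KO, against 120, 106, 113 and 149 counts in WT, with -0.44 ± 0.12 (adjusted p = 0.0325, edgeR), and it did not pass without any 1 of the 8 libraries (0.0537 to 0.155). Of 12 head and cranial crest genes tested, 3 rose and 3 fell (median 0.14), with Dlx5 at 3.29 ± 0.53 and Foxc1 at 0.89 ± 0.15 among those with the smallest p (adjusted p = 0.00224 and 0.00273, edgeR). Of 11 axial and visceral mesoderm genes tested, 3 rose and 0 fell (median 0.45), namely Wt1 at 1.45 ± 0.25, Nkx3-2 at 1.09 ± 0.29 and Foxf2 at 1.48 ± 0.40 (adjusted p = 0.00324, 0.029 and 0.0296, edgeR). Nkx3-2 did not pass without any 1 library of 15, 45 or 60 min (adjusted p 0.0745 to 0.111), nor did Foxf2 without any 1 library of 15 or 45 min (0.0682 to 0.189). With DESeq2 the adjusted p was 0.191 for Tbx5, 0.157 for Nkx3-2 and 0.175 for Foxf2.

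**Figure D5:**
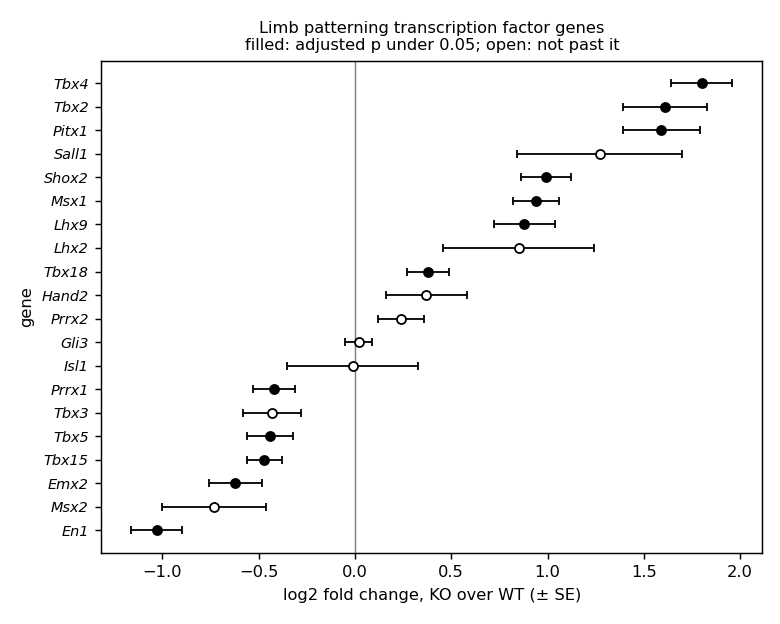
Log2 fold change, KO over WT, of the 20 limb patterning transcription factor genes tested, with bars for the standard error and filled points for an adjusted p under 0.05. Tbx4 (1.80), Tbx2 (1.61) and Pitx1 (1.59) are at the top and En1 (-1.03) at the bottom.

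Markers of other cells moved with the genotype, in a fit where 6.81% of all genes tested were higher in KO and 9.44% lower. Of 9 macrophage markers tested, 0 rose and 8 fell, and their summed level was 5.88 to 7.95 CPM in KO against 60.2 to 86.7 CPM in WT, with Adgre1 at 0, 0, 0 and 2 counts in KO. Of 7 cartilage markers tested, 5 rose and 0 fell, and their summed level was 463, 42.4, 40.1 and 70.8 CPM in KO against 28.3, 27.4, 26.7 and 23.4 CPM in WT. The KO library at 0 min stood apart in this list. Without it, 16 Hox genes passed, 4 higher and 12 lower, and Hoxa13 was the gene lost. Of 3 endothelial markers tested, 3 rose (Kdr, Tek and Erg), with a summed level of 12.5 to 18.2 CPM in KO and 5.21 to 7.60 CPM in WT for the list. Pecam1, Cdh5, Tie1 and Emcn had too few counts to test, with Pecam1 at 8, 1, 4 and 1 in KO against 0, 1, 8 and 6 in WT. The single muscle marker tested, Des, rose, with the list at 5.41 to 6.71 CPM in KO and 0.72 to 1.60 CPM in WT while Myod1 and Myf5 were at 0 in all libraries. Of 2 epithelial markers tested, 2 rose, with a summed level of 14.5, 2.47, 4.45 and 2.93 CPM in KO against 1.07, 1.22, 1.29 and 1.23 CPM in WT, so the KO library at 0 min stood apart here too. Of 4 neural markers tested 2 rose and 1 fell (106 to 120 CPM in KO and 136 to 166 CPM in WT). That sum was mostly Map2, the gene that fell (-0.68 ± 0.07), while the median log2 fold change of the neural list was 0.83. Of 12 fibroblast markers 1 rose, close to the share over all genes, and 3 fell. The part of these cells in the Hox differences was not tested. In bulk RNA, fewer cells of a type and less RNA per cell cannot be told apart.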

How the data were processed

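RNA associated with chromatin was depleted of ribosomal RNA and made into stranded single-end libraries, per the labels' protocols. The submitters' processing notes name cutadapt 1.12, STAR, featureCounts 1.5.0, DESeq2 and mm10. The authors deposited raw counts of reads per gene, as whole numbers without normalization, per the file headers. The sources used here give no strand setting, no treatment of shared reads and no annotation release, so genes with overlapping or antisense partners are uncertain. Exon overlaps were computed from the exon coordinates deposited with the counts, and promoters and microRNAs were read from RefSeq.

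The 39 members and all gene lists were chosen with earlier results of these data known. Counts were scaled by TMM and tested with edgeR 4.0.16 (quasi-likelihood, R 4.3.3) over the 15049 genes that reached 10 counts in 2 or more libraries, with Benjamini-Hochberg adjustment over all of them. Time was a block in the genotype comparison. The late response came from 6 cell means. Standard errors were taken from each log2 fold change and its F statistic (change over root F). CPM values and CPM per kb of exon were computed from TMM-scaled counts. Ratios and shares carry exact Clopper-Pearson intervals at 95%, which cover counting error only. The scripts were tested on simulated data. Chi-square per degree of freedom between library pairs ran from 8.43 to 56.5, so none was a duplicate. Named genes are called members, the most abundant member of each cluster per exon length, members above 200 counts that were not called, cluster rows with at least 20 counts and the 3 smallest p of each list, of which a few values are not reported here. Alternatives were DESeq2 1.42.0, limma-voom (limma 3.58.1), other scalings, filters and baselines, no time block and leaving out each library.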

Additional observations from a re-analysis of the deposited data

How the results depend on the processing

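The 17 Hox genes called between KO and WT were 17 with RLE scaling, limma-voom, either other low-count filter and robust empirical Bayes, 18 with total counts, 15 with DESeq2, 16 with 15, 45 and 60 min only, 12 without the time block, and 13 to 16 with each library left out in turn. Among values of single Hox genes under the alternatives, 627 kept their side of the threshold, 27 no longer passed, 2 newly passed and none turned in direction. The lost calls were of Hoxa13, Hoxb5, Hoxb6 (without the time block, adjusted p = 0.0511), Hoxc9, Hoxd8 and Hoxd10, and the other 11 genes passed in every alternative run. The causes were not tested. Scaled by total counts, the median log2 value of all genes was -0.17 instead of 0.01 for KO against WT, -0.21 instead of -0.01 for the late response in KO and -0.21 instead of 0.00 for that in WT, and the share of calls that were higher became 14.1% instead of 41.9% for KO against WT, 26.9% instead of 71.7% for the late response in KO and 52.1% instead of 76.1% for that in WT. Over all genes, 2446 were called between KO and WT, against 1535 with DESeq2, 1067 without the time block and 1154 to 2422 with a library left out. The late response gave 276 genes in KO, against 153 with DESeq2, 17 without the low-count filter, 1144 with 0 and 15 min together as baseline and 169 to 776 with a library left out. In WT it gave 825, against 427 with DESeq2, 278 without the filter, 1669 with the joint baseline and 731 to 1014 with a library left out. The difference of the late responses gave 75, against 14 without the filter, 198 with the joint baseline and 51 to 160 with a library left out. With the joint baseline 1 Hox gene, Hoxa13, passed in WT. At single times, the Hox genes lower in KO became 6 instead of 3 at 0 min and 11 instead of 7 at 45 min with total counts. With a 1.5-fold limit they became 8 at 0 min, 10 instead of 6 at 15 min and 11 at 45 min, and those higher at 60 min became 4 instead of 1. The labels give no replicate numbers, so KO and WT libraries were paired by time alone, through the time block. Groups of 1 library could not be checked for stray samples, and members with few counts, such as Hoxb7 and Hoxd3, are limited by depth.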
